A study of Mus musculus with 24 samples.

Results

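The genes described here are the 4 Id genes (Id1, Id2, Id3 and Id4) and the 6 Smad genes of bone morphogenetic protein (BMP) signalling (Smad1, Smad4, Smad5, Smad6, Smad7 and Smad9). They were taken by symbol from the 47643 genes counted in each library, and all 10 were found. Organoids are epithelial cell clusters that grow in a gel, here Matrigel, and these came from stem and progenitor cells of C57BL/6 mouse salivary glands. Glands received radiation (IR) or a sham procedure, cells were cultured 14 or 90 days afterwards, and organoids of passage 1 and passage 2 were sequenced. This gave 8 groups of 3 libraries, sham and IR at each day and passage, and 24 libraries in all. Every group shared 1 culture medium with EGF, FGF2, N2, insulin, dexamethasone and the ROCK inhibitor Y-27632. By design IR differed from sham in irradiation of the gland, not of the cultured cells. The sources used here give neither the radiation dose nor whether replicates came from separate animals. P-values therefore set a difference only against the scatter of libraries within groups, which may be technical. In the main fit this scatter was estimated over all 8 groups together. Passage 2 is by name a further round of culture after passage 1.

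BMP ligands bind pairs of type I and type II receptors at the cell surface. The activated receptors phosphorylate Smad1, Smad5 and Smad9, which join the common partner Smad4 and enter the nucleus. Id genes are among the most direct targets of this complex. Id proteins lack a DNA-binding region and hold basic helix-loop-helix (bHLH) factors away from DNA, which in many epithelia goes with delayed differentiation. Smad6 and Smad7 are inhibitory Smads that act back on the receptors, Smad6 mainly on BMP signalling and Smad7 also on TGF-beta signalling, and both are themselves induced by the pathway. The series title names Bmp4 of the microenvironment, and the comparisons address how irradiation of the gland, the time after it and the passage changed this readout in organoids.

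The promoters of the 3 Id genes with a window in the RefSeq table are shown first, since the Id genes carried most of the differences described below. Each window runs from 250 bases before to 50 bases after the annotated start (GRCm38.p6) and is 300 bases long. Capitals mark GGCGCC, a GC-rich palindrome known from BMP-responsive elements, and CAGAC or its reverse complement GTCTG, the Smad-binding element. Windows were matched for 7 of the 10 genes, and Id1, Smad4 and Smad7 were not matched.
Id2: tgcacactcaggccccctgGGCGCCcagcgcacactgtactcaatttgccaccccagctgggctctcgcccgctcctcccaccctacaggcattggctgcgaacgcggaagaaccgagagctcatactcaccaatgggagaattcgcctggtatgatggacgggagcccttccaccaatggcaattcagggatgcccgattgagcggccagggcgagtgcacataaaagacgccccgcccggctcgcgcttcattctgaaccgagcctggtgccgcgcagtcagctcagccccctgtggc
Id3: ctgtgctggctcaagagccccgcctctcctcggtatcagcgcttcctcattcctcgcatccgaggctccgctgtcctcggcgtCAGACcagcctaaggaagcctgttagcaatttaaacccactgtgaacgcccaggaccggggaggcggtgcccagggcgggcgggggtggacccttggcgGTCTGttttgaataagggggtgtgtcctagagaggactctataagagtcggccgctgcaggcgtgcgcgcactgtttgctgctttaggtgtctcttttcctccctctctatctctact
Id4: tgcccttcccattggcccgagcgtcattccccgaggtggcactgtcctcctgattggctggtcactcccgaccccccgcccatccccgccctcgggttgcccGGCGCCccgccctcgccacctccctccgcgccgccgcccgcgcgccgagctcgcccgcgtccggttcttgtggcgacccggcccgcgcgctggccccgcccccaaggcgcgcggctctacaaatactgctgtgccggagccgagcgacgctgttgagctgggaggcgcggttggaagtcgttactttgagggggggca

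The Id2 window (chr12:25096043-25096342, minus strand) held 1 GGCGCC, which began at position -231 with the start site at 0, and 1 E-box (CANNTG) at -196. The Id3 window (chr4:136143572-136143871, plus strand) held CAGAC or GTCTG in 2 places, at -167 and -68, and no GGCGCC or E-box. The Id4 window (chr13:48260866-48261165, plus strand) held 1 GGCGCC at -148. TATAAA was in none of these 3 windows. Both strands were searched, and none of the marked stretches overlapped another. Of 32851 windows in the table, 11.9% held GGCGCC, 49.6% CAGAC, 72.3% CANNTG and 13.6% TATAAA. A match describes the letters in the window and no more.

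The libraries held 1151608 to 3189466 counts on genes (median 2091528.5). Values are given as CPM, a rate of counts relative to the TMM-scaled library size, and since the libraries read the 3' end of transcripts, a count does not grow with transcript length. Between 11.8% and 29.0% of the counts fell on Gm42418, a predicted gene that overlaps ribosomal RNA sequence. All 8 epithelial markers, among them Epcam, Cdh1, Krt5 and Krt14, had counts in every group, and their summed level was 3897 to 10405 CPM over the libraries. The 7 mesenchymal markers together reached at most 3.83 CPM and the 5 endothelial markers at most 2.05 CPM, and Col3a1 and Pdgfrb were at 0 in every library. Of the 5 blood cell markers Hbb-bs was at 0 throughout, and the sum reached 41.2 CPM through Lyz2. In bulk libraries fewer expressing cells and less RNA per cell cannot be told apart. A pair of libraries stood apart from their group in the Id genes: IR replicate 3 of day 14 and passage 2, and sham replicate 1 of day 90 and passage 2.

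Id1, Id2 and Id3 were the members that varied most between groups. Over the 12 sham libraries Id1 ranged from 10.6 to 91.0 CPM with a median of 27.6, and over the 12 IR libraries from 11.5 to 245 CPM with a median of 89.4. Id2 ranged from 104 to 291 CPM in sham (median 164) and from 134 to 487 CPM in IR libraries (median 363). Id3 ranged from 12.3 to 91.0 CPM in sham (median 48.1) and from 39.3 to 356 CPM in IR libraries (median 164). Within a day and passage, the 3 IR libraries all lay above the 3 sham libraries in 4 of 4 comparisons for Id2, in 4 of 4 for Id3 and in 3 of 4 for Id1. Of the 9 tested members, those without overlap in this direction were 3 at day 14 and passage 1, where 8.83% of all tested genes showed it, and 2 at day 14 and passage 2, where 6.06% did. They were 3 at day 90 and passage 1, against 9.14% of tested genes, and 3 at day 90 and passage 2, against 10.9%. In each case these members were Id1, Id2 and Id3, less Id1 at day 14 and passage 2.

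**Figure D1:**
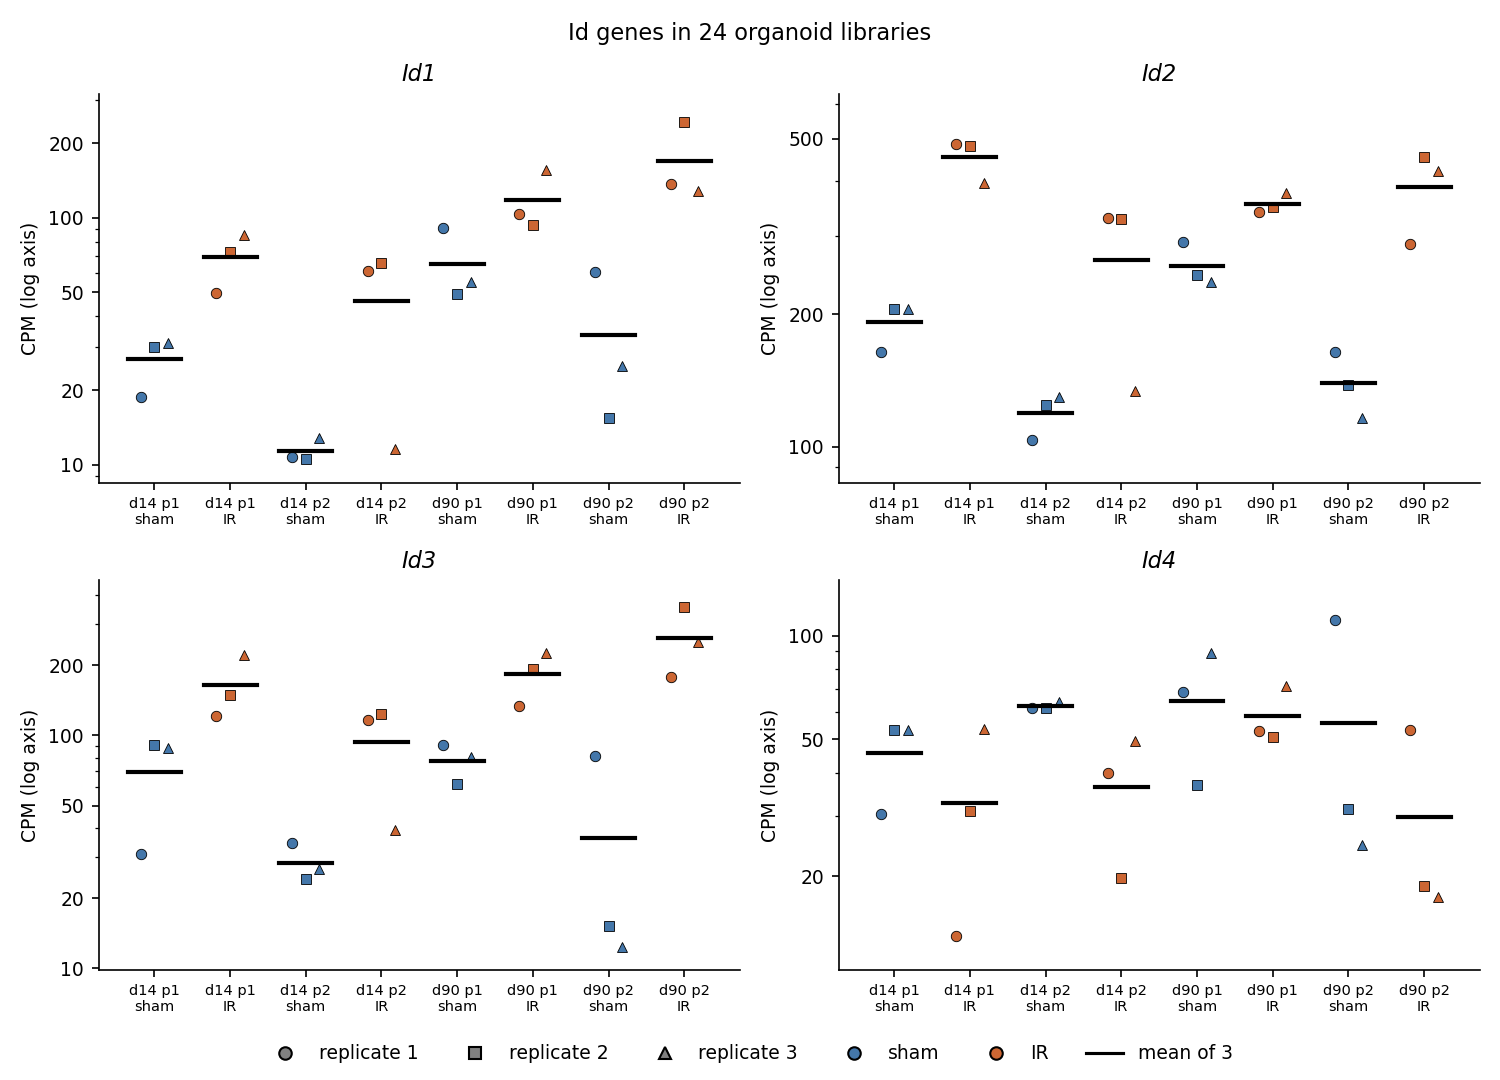
Levels of the Id genes in all 24 libraries, as CPM on a log axis, by day (d), passage (p) and treatment. Points are single libraries, the shape gives the replicate number and the bar the mean of 3; Id1, Id2 and Id3 lay higher in IR than in sham libraries of the same day and passage, except Id1 in 1 IR library of day 14 and passage 2 (11.5 CPM), while Id4 had lower IR means throughout.

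At day 14 and passage 1, Id2 rose after irradiation of the gland. Id2 was at 164, 205 and 205 CPM in the sham libraries and at 487, 482 and 397 CPM in the IR libraries. The groups were far apart, with means of 191 ± 23.8 and 455 ± 50.7 CPM (SD, n = 3). The log2 fold change was 1.25 (SE 0.24, adjusted p = 0.0296, edgeR quasi-likelihood test). Id2 is the Id family member best known from epithelial and lymphoid progenitors, and it was the 1 member called of 9 tested, where 0.341% of all tested genes were called. Id1, a BMP target first described as an inhibitor of myogenic factors, was at 18.8, 30.1 and 31.2 CPM in sham and at 49.8, 72.4 and 85.4 CPM in IR libraries. Its groups did not overlap, but it was not called (log2 fold change 1.36, SE 0.50, adjusted p = 0.293). Id3 was at 30.9, 90.9 and 87.9 CPM in sham and at 121, 149.5 and 223 CPM in IR libraries (1.22, SE 0.52, adjusted p = 0.384). Leaving out IR replicate 1 or 2, or any single sham replicate, ended the call of Id2 (adjusted p up to 0.197). Nearly all other calls ended there too, with 0 to 2 of all tested genes called in each such fit, against 36 in the main fit. Without IR replicate 3, 147 genes were called. Over the 6 fits with 1 library of these groups left out, the log2 fold change of Id2 ranged from 1.15 to 1.34. The summed myoepithelial markers moved with these groups, at 24.3 to 36.3 CPM in sham and 4.31 to 8.87 CPM in IR libraries, as did the summed acinar markers (35.9 to 87.4 and 20.6 to 29.2 CPM) and, the other way, the blood cell markers (5.38 to 8.18 and 14.5 to 41.2 CPM). The part of these marker sets in the Id2 difference was not tested.

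At day 14 and passage 2, Id2 and Id3 lay higher in all 3 IR libraries than in the sham libraries and Id1 in 2 of the 3, and edgeR called none of them. Id2 was at 104, 124 and 129.9 CPM in sham and at 330.5, 329 and 134 CPM in IR libraries. The third IR library was thus barely above the sham libraries, and the log2 fold change was 1.14 (SE 0.25, adjusted p = 0.186). For Id1 the sham libraries were at 10.7, 10.6 and 12.9 CPM and the IR libraries at 61.1, 65.4 and 11.5 CPM (1.95, SE 0.55, adjusted p = 0.499), so that IR replicate 3 fell among the sham libraries. Id3 was at 34.5, 24.1 and 26.6 CPM in sham and at 117, 124 and 39.3 CPM in IR libraries (1.70, SE 0.56, adjusted p = 0.562). With edgeR 0 of the 9 tested members were called here, and 0.0189% of all 10563 tested genes. DESeq2 called Id1 and Id2, among 17 genes in all. An unadjusted p under 0.05 in edgeR was found for 3 members and for 710 of all tested genes. Without IR replicate 3, Id1 (2.46, adjusted p = 0.0121) and Id2 (1.47, adjusted p = 0.000392) were called. Gm42418 took 17.2% of the counts in that library and 26.5% and 27.4% in the other IR libraries of the group. The summed myoepithelial markers were at 14.1 to 17.6 CPM in sham and 1.98 to 9.73 CPM in IR libraries, and the part of either in the differences was not tested.

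At day 90 and passage 1, Id1, Id2 and Id3 again lay higher in every IR library than in the sham libraries, and none was called. Id1 was at 91.0, 49.1 and 54.9 CPM in sham and at 103, 93.4 and 156 CPM in IR libraries. Its groups were separated by a narrow gap, and it was not called (log2 fold change 0.87, SE 0.45, 95% interval -0.07 to 1.81, adjusted p = 0.435). Id2 was at 291, 245 and 236 CPM in sham and at 342, 351 and 376 CPM in IR libraries (0.47, SE 0.24, adjusted p = 0.421). Id3, a close relative of Id1 in sequence and regulation, was at 91.0, 61.7 and 80.9 CPM in sham and at 133, 193 and 225 CPM in IR libraries (1.24, SE 0.51, adjusted p = 0.298). Of 9 members edgeR and DESeq2 called 0, and 1 had an unadjusted p under 0.05. Of all 10563 tested genes edgeR called 0.0473% and DESeq2 86 genes, and 1342 had an unadjusted p under 0.05. The share of Gm42418 moved with these groups. It was 28.6%, 15.9% and 11.8% of the counts in sham and 29.0%, 26.9% and 27.0% in IR libraries. With that share as a covariate, edgeR called 0 members and 0 of all tested genes, against 5 genes in the main fit. The part of Gm42418 was not tested beyond that fit. The summed myoepithelial markers were at 6.74 to 12.6 CPM in sham and 4.605 to 5.63 CPM in IR libraries, and their part was not tested.

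At day 90 and passage 2, Id1, Id2, Id3 and Smad7 rose, which made 4 of the 9 tested members, where 4.91% of all tested genes were called. Id3 was at 81.4, 15.1 and 12.3 CPM in sham and at 178, 356 and 252 CPM in IR libraries. Its lowest IR library was above its highest sham library, and the means were 36.3 ± 39.1 and 262 ± 89.7 CPM (SD, n = 3). The log2 fold change of Id3 was 2.83 (SE 0.54, adjusted p = 0.00410). For Id1 the sham libraries were at 60.2, 15.4 and 25.05 CPM and the IR libraries at 137, 245 and 129 CPM (2.33, SE 0.47, adjusted p = 0.00573), with no overlap. Id2 was at 164, 138 and 116 CPM in sham and at 288, 455 and 422 CPM in IR libraries (1.48, SE 0.24, adjusted p = 0.00143), again with no overlap. Sham replicate 1 held the highest sham value of all 3 genes, and without it the log2 fold changes of Id1 and Id3 were 3.07 and 4.23. With only these 2 groups in the fit, Id2 kept its call, and those of Id1, Id3 and Smad7 were lost (adjusted p = 0.0670, 0.0893 and 0.223). Gm42418 took 15.5%, 14.3% and 13.1% of the counts in sham and 13.47%, 24.3% and 23.02% in IR libraries, so that the IR libraries with the larger share were also the higher ones for Id2 and Id3. With that share as a covariate, edgeR called Id1, Id2 and Id3, among 237 genes in all, and not Smad7 (adjusted p = 0.193). The summed epithelial markers were at 6426 to 8906 CPM in sham and 3897 to 7464 CPM in IR libraries, which overlapped, and the part of these markers was not tested.

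Taken as the mean of the 4 irradiation effects, which weights each day and passage equally, Id2 was higher by 1.08 on the log2 scale (SE 0.12, 95% interval 0.83 to 1.34, adjusted p = 4.61e-05). By p-value Id2 had rank 2 among the 10563 tested genes in this comparison. Id1 was higher by 1.63 (SE 0.25, adjusted p = 0.000382) and Id3 by 1.75 (SE 0.27, adjusted p = 0.000391). With Smad7, 4 of the 9 tested members were called in the mean, where 11.0% of all tested genes were. The median log2 fold change of the 9 tested members was 0.33, beside 0.00 over all tested genes. The calls of Id1, Id2 and Id3 in the mean held under every alternative run, the Gm42418 covariate and each left-out library included. The summed myoepithelial markers lay lower in IR libraries without overlap in 3 of the 4 day and passage combinations that enter the mean, and their part in it was not tested.

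Id4 did not share this pattern. Id4 is the family member whose protein also binds the other Id proteins, and it is often expressed apart from them. It ranged from 24.7 to 111 CPM over the sham libraries (median 57.5) and from 13.4 to 71.4 CPM over the IR libraries (median 44.7). Its IR mean was below the sham mean in 4 of 4 comparisons, with log2 fold changes of -0.48 and -0.75 at day 14 and -0.16 and -0.88 at day 90, for passages 1 and 2. None was called (adjusted p from 0.390 to 0.928), and in the mean it stood at -0.57 (SE 0.26, 95% interval -1.11 to -0.03, adjusted p = 0.172). In the mean Id4 was called lower with no filter on low counts (adjusted p = 3.12e-05) and without IR replicate 1 of day 90 and passage 2 (-0.75, adjusted p = 0.0449). The groups separated at day 14 and passage 2, where sham libraries were at 61.7, 61.7 and 64.3 CPM and IR libraries at 40.0, 19.8 and 49.4 CPM. There 580 of all 10563 tested genes, Id4 included, had every IR library below the sham libraries. At day 90 and passage 2 the sham libraries were at 111, 31.5 and 24.7 CPM and the IR libraries at 53.3, 18.7 and 17.4 CPM, and without sham replicate 1 the log2 fold change was 0.09. An antisense gene overlapping Id4 in an older annotation, A330033J07Rik, had 6 counts over all libraries.

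**Figure D2:**
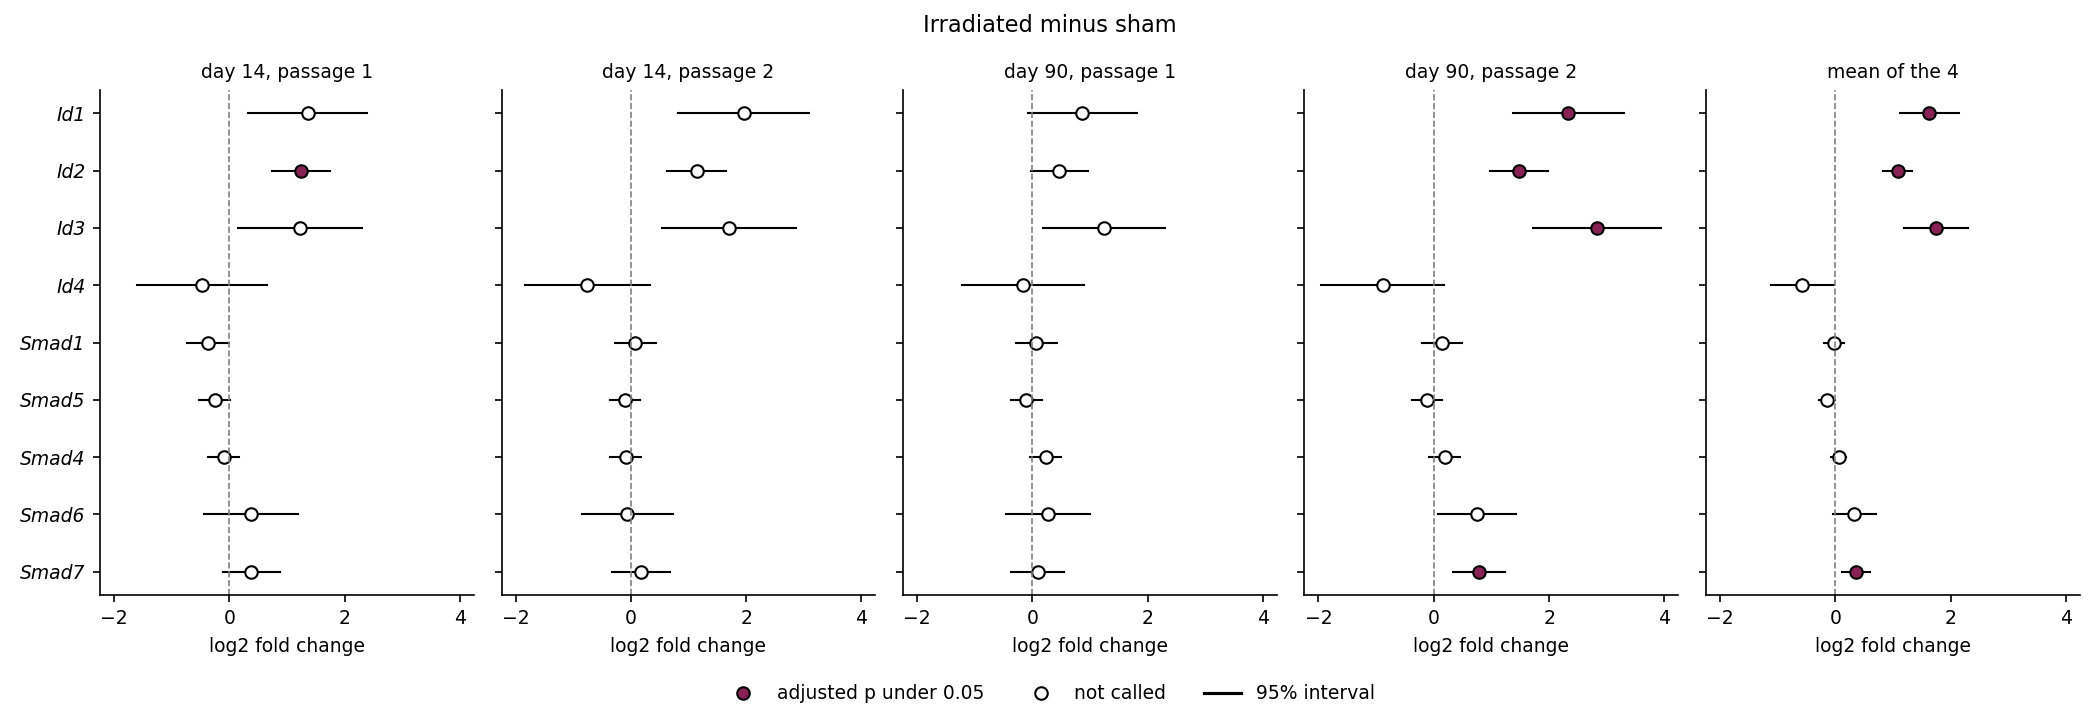
Log2 fold change of IR against sham for the 9 tested members in each day and passage and in the mean of the 4, with 95% intervals; filled points were called at an adjusted p under 0.05. The points of Id1, Id2 and Id3 lay to the right of 0 in every panel (0.47 to 2.83), those of Id4 to the left, and those of Smad1, Smad4 and Smad5 close to 0.

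The receptor-activated Smads and Smad4, which carry the signal, stayed within a narrow range. Smad1 ranged from 89.4 to 130.3 CPM over the sham libraries and from 73.4 to 139 CPM over the IR libraries. Smad5 ranged from 74.1 to 109.5 CPM in sham and from 70.5 to 109 CPM in IR libraries. Smad4, the common partner of BMP and TGF-beta Smads, ranged from 77.5 to 112 CPM in sham and from 74.7 to 114 CPM in IR libraries. The highest group mean was 1.37 times the lowest for Smad1, 1.35 times for Smad4 and 1.40 times for Smad5, beside 14.95 times for Id1, 3.82 times for Id2 and 9.23 times for Id3. In the mean of the irradiation effects the 95% interval was -0.20 to 0.15 for Smad1, -0.08 to 0.19 for Smad4 and -0.28 to -0.01 for Smad5, on the log2 scale. The adjusted p-values were 0.907, 0.617 and 0.157.

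Within single comparisons these 3 genes were not called either, with log2 fold changes from -0.37 to 0.23. The lowest was that of Smad1 at day 14 and passage 1, where sham libraries were at 120.3, 130.3 and 109 CPM and IR libraries at 97.2, 73.4 and 105 CPM (SE 0.17, adjusted p = 0.434). The 2 groups did not overlap, with IR below sham, as for 887 of all 10563 tested genes in that comparison. Smad5 had a negative log2 fold change in 4 of 4 comparisons, from -0.26 to -0.10. At day 14 and passage 2 the Smad5 libraries were at 101, 99.4 and 103 CPM in sham and at 95.9, 97.1 and 90.8 CPM in IR, with no overlap (-0.10, SE 0.13, adjusted p = 0.928). Every IR library lay below the sham libraries for 580 of all 10563 tested genes there. In the other 3 comparisons the Smad5 groups overlapped.

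Smad9, the third receptor-activated BMP Smad, was close to undetected. It had 4 counts over all 24 libraries, at most 1 in a library, and did not pass the filter on low counts. Its counts fell in sham and IR of day 14 and passage 1 and in sham of passage 2 at both days, 1 in each. In the other 4 groups it had 0 counts. A count of 0 allows up to 3 counts over the 3 libraries of a group, which is 0.490 CPM in IR of day 14 and passage 2, 0.394 CPM in sham of day 90 and passage 1, 0.589 CPM in IR of day 90 and passage 1 and 0.377 CPM in IR of day 90 and passage 2. These limits are relative to the summed gene counts of a group without TMM scaling, unlike the other CPM values, and cover counting error only. Smad9 entered only the fit with no filter, and 4 counts are too few for a reading of its differences.

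**Figure D3:**
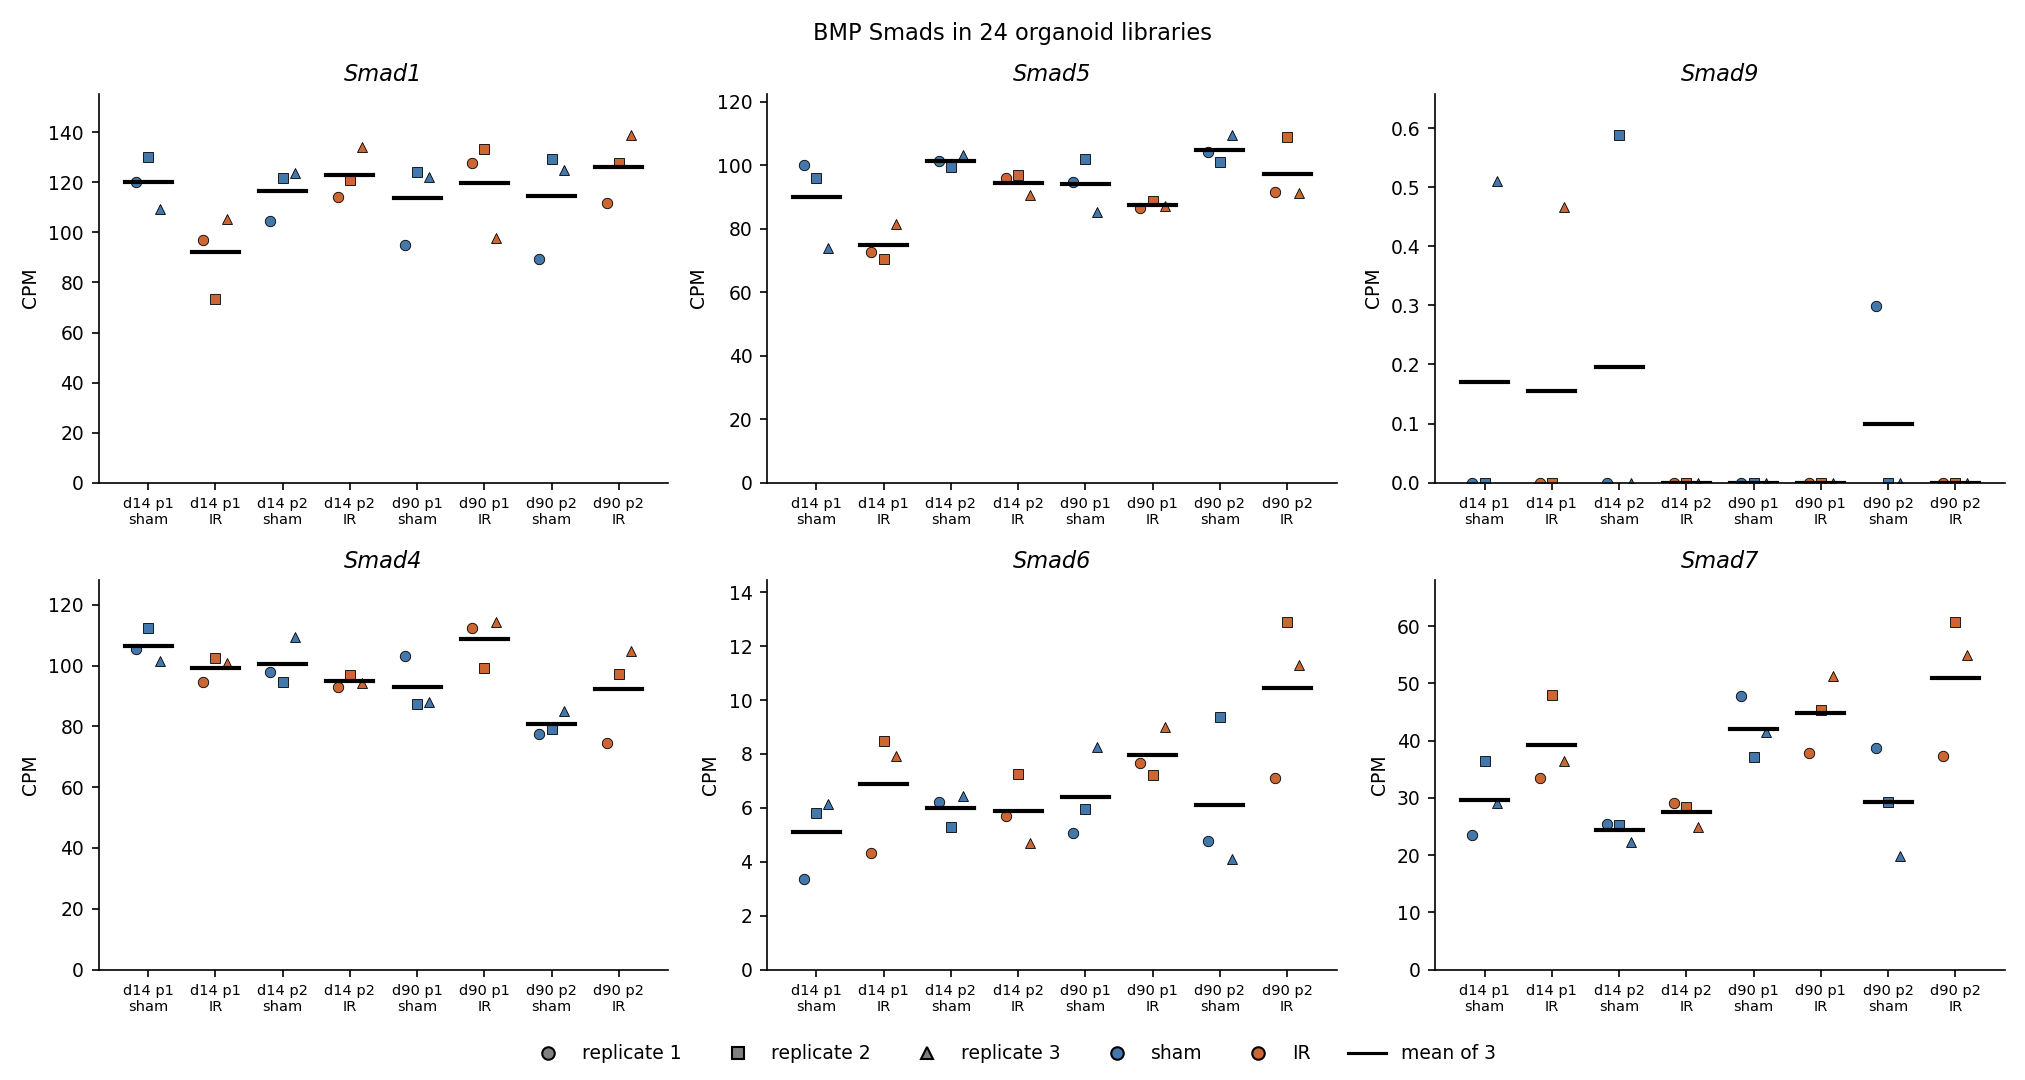
Levels of the 6 Smads in all 24 libraries, as CPM on linear axes from 0, by day (d), passage (p) and treatment; points are single libraries and the bar is the mean of 3. Smad1, Smad4 and Smad5 stayed between 70.5 and 139 CPM, Smad9 had 1 count in each of 4 libraries, and Smad6 and Smad7 had their highest means in IR of day 90 and passage 2.

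Of the inhibitory Smads, Smad7 rose at day 90 and passage 2. It was at 38.8, 29.3 and 19.8 CPM in sham and at 37.3, 60.7 and 54.9 CPM in IR libraries. IR replicate 1 lay below sham replicate 1, so the groups overlapped, and the log2 fold change was 0.78 (SE 0.22, adjusted p = 0.0399). The call was lost without sham replicate 2 or 3, without IR replicate 2 or 3, with total counts as the scaling (adjusted p = 0.0938), with only the compared groups (adjusted p = 0.223) and in a fit that included the share of Gm42418 (adjusted p = 0.193). At the other 3 day and passage combinations the IR mean was higher as well, with log2 fold changes from 0.09 to 0.38, and none was called. In the mean of the 4 effects Smad7 was at 0.36 (SE 0.12, adjusted p = 0.0497) and ranked 1165 by p-value among the 1167 called genes, next to the threshold. That call was lost when 17 of the 24 libraries were each left out, and also with total counts (adjusted p = 0.102), no filter (0.0595), the replicate block (0.0571) and the Gm42418 covariate (0.188).

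Smad6, which acts mainly on BMP receptors, was the lowest of the tested members in counts, with 5 to 32 counts per library. It ranged from 3.36 to 9.38 CPM over sham (median 5.87) and from 4.31 to 12.9 CPM over IR libraries (median 7.47). At day 90 and passage 2 it was at 4.77, 9.38 and 4.11 CPM in sham and at 7.11, 12.9 and 11.3 CPM in IR libraries. The groups overlapped, and it was not called (log2 fold change 0.74, SE 0.33, 95% interval 0.07 to 1.42, adjusted p = 0.217). At day 14 and passage 2 its log2 fold change was -0.06, and it turned to 0.10 without IR replicate 3.

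The order of the 8 group means placed irradiated organoids at the top for Id1, Id2 and Id3 and sham organoids of day 14 and passage 2 at the bottom. Id1 fell in this order from IR of day 90 and passage 2 (170.4 ± 64.7 CPM), through IR of day 90 and passage 1 (118 ± 33.6) and IR of day 14 and passage 1 (69.2 ± 18.0), to sham of day 14 and passage 2 (11.4 ± 1.27). Between these, sham of day 90 and passage 1 (65.0 ± 22.7 CPM) stood above IR of day 14 and passage 2 (46.0 ± 29.9 CPM). Of the 7 neighbouring pairs in the order of Id1, 5 overlapped in their libraries, that pair included. The 2 that did not were IR of day 90 and passage 1 above IR of day 14 and passage 1, and sham of day 14 and passage 1 (26.7 ± 6.85 CPM) above sham of day 14 and passage 2.

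For Id2 the order began with IR of day 14 and passage 1 (455 ± 50.7 CPM), IR of day 90 and passage 2 (388 ± 88.4) and IR of day 90 and passage 1 (356 ± 18.0). It ended with sham of day 90 and passage 2 (139 ± 23.9) and sham of day 14 and passage 2 (119 ± 13.9), and 4 of the 7 neighbouring pairs overlapped. For Id3 it ran from IR of day 90 and passage 2 (262 ± 89.7 CPM) to sham of day 14 and passage 2 (28.4 ± 5.43 CPM), and all 7 neighbouring pairs overlapped. All 7 neighbouring pairs overlapped also for Id4, Smad1, Smad4, Smad6 and Smad7, and 6 of 7 for Smad5.

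Between passages of the same treatment and day, edgeR called no member, and Id1, Id2 and Id3 lay lower in passage 2 in sham organoids. At day 14 the sham log2 fold changes of passage 2 against passage 1 were -1.23 for Id1 (SE 0.57, adjusted p = 0.415), -0.68 for Id2 (SE 0.25, adjusted p = 0.234) and -1.31 for Id3 (SE 0.56, adjusted p = 0.354). There edgeR and DESeq2 called 0 of 9 members, and 3 had an unadjusted p under 0.05. Of all 10563 tested genes edgeR called 1.18% and DESeq2 184 genes, and 1206 had an unadjusted p under 0.05. At day 90 in sham, Id2 was at -0.88 (SE 0.24, adjusted p = 0.0710) and Smad7 at -0.51 (SE 0.22, adjusted p = 0.297). With edgeR 0 of 9 members were called, and 1.36% of all 10563 tested genes. DESeq2 called 1 member, among 212 genes in all. An unadjusted p under 0.05 in edgeR was found for 2 members and for 1477 of all tested genes. The member called by DESeq2 was Id2, and without sham replicate 1 of passage 2 edgeR called Id3.

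In IR organoids of day 14, passage 2 against passage 1 gave -0.79 for Id2 (SE 0.24, adjusted p = 0.111), -0.50 for Smad7 (SE 0.24), 0.41 for Smad1 (SE 0.17) and 0.33 for Smad5 (SE 0.13). In that comparison edgeR and DESeq2 called 0 of 9 members, and these 4 had an unadjusted p under 0.05. Of all 10563 tested genes edgeR called 1.41% and DESeq2 261 genes, and 1494 had an unadjusted p under 0.05. In IR organoids of day 90, edgeR and DESeq2 called 0 of 9 members, and 0 had an unadjusted p under 0.05. Of all tested genes edgeR called 0.0284% and DESeq2 42 genes, and 1069 had an unadjusted p under 0.05.

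Between day 90 and day 14 edgeR called no member either, and Id1 lay higher at day 90. In sham organoids Id1 was at 1.25 in passage 1 (SE 0.49, adjusted p = 0.401) and at 1.55 in passage 2 (SE 0.54, adjusted p = 0.195), on the log2 scale. With edgeR 0 of 9 members were called in each, 2 in each had an unadjusted p under 0.05 and DESeq2 called 0 in each. Of all 10563 tested genes in sham of passage 1, edgeR called 0.00% and DESeq2 52 genes, and 1026 had an unadjusted p under 0.05. In sham of passage 2 edgeR called 0.445% and DESeq2 117 genes, and 1450 had an unadjusted p under 0.05. The other members under that p were Smad7 in passage 1 (0.49, SE 0.23) and Smad4 in passage 2 (-0.32, SE 0.13).

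In IR organoids of passage 1, day 90 against day 14 gave 0.37 for Smad1 (SE 0.17, adjusted p = 0.702). It was the 1 member with an unadjusted p under 0.05, and edgeR and DESeq2 called 0 of 9. Of all 10563 tested genes edgeR called 0.170% and DESeq2 35 genes, and 720 had an unadjusted p under 0.05. In IR organoids of passage 2, Id1 was at 1.93 (SE 0.47, adjusted p = 0.0620), Smad7 at 0.89 (SE 0.23, adjusted p = 0.0761) and Id3 at 1.50 (SE 0.51, adjusted p = 0.180). Id2 (0.56, SE 0.24) and Smad6 (0.84, SE 0.35) lay in the same direction. These 5 had an unadjusted p under 0.05, as did 1428 of all 10563 tested genes. With edgeR 0 of 9 members were called, and 0.435% of all tested genes. DESeq2 called Id1 and Smad7, among 168 genes in all. Without IR replicate 1 of day 90 and passage 2, edgeR called the same pair of genes.

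**Figure D4:**
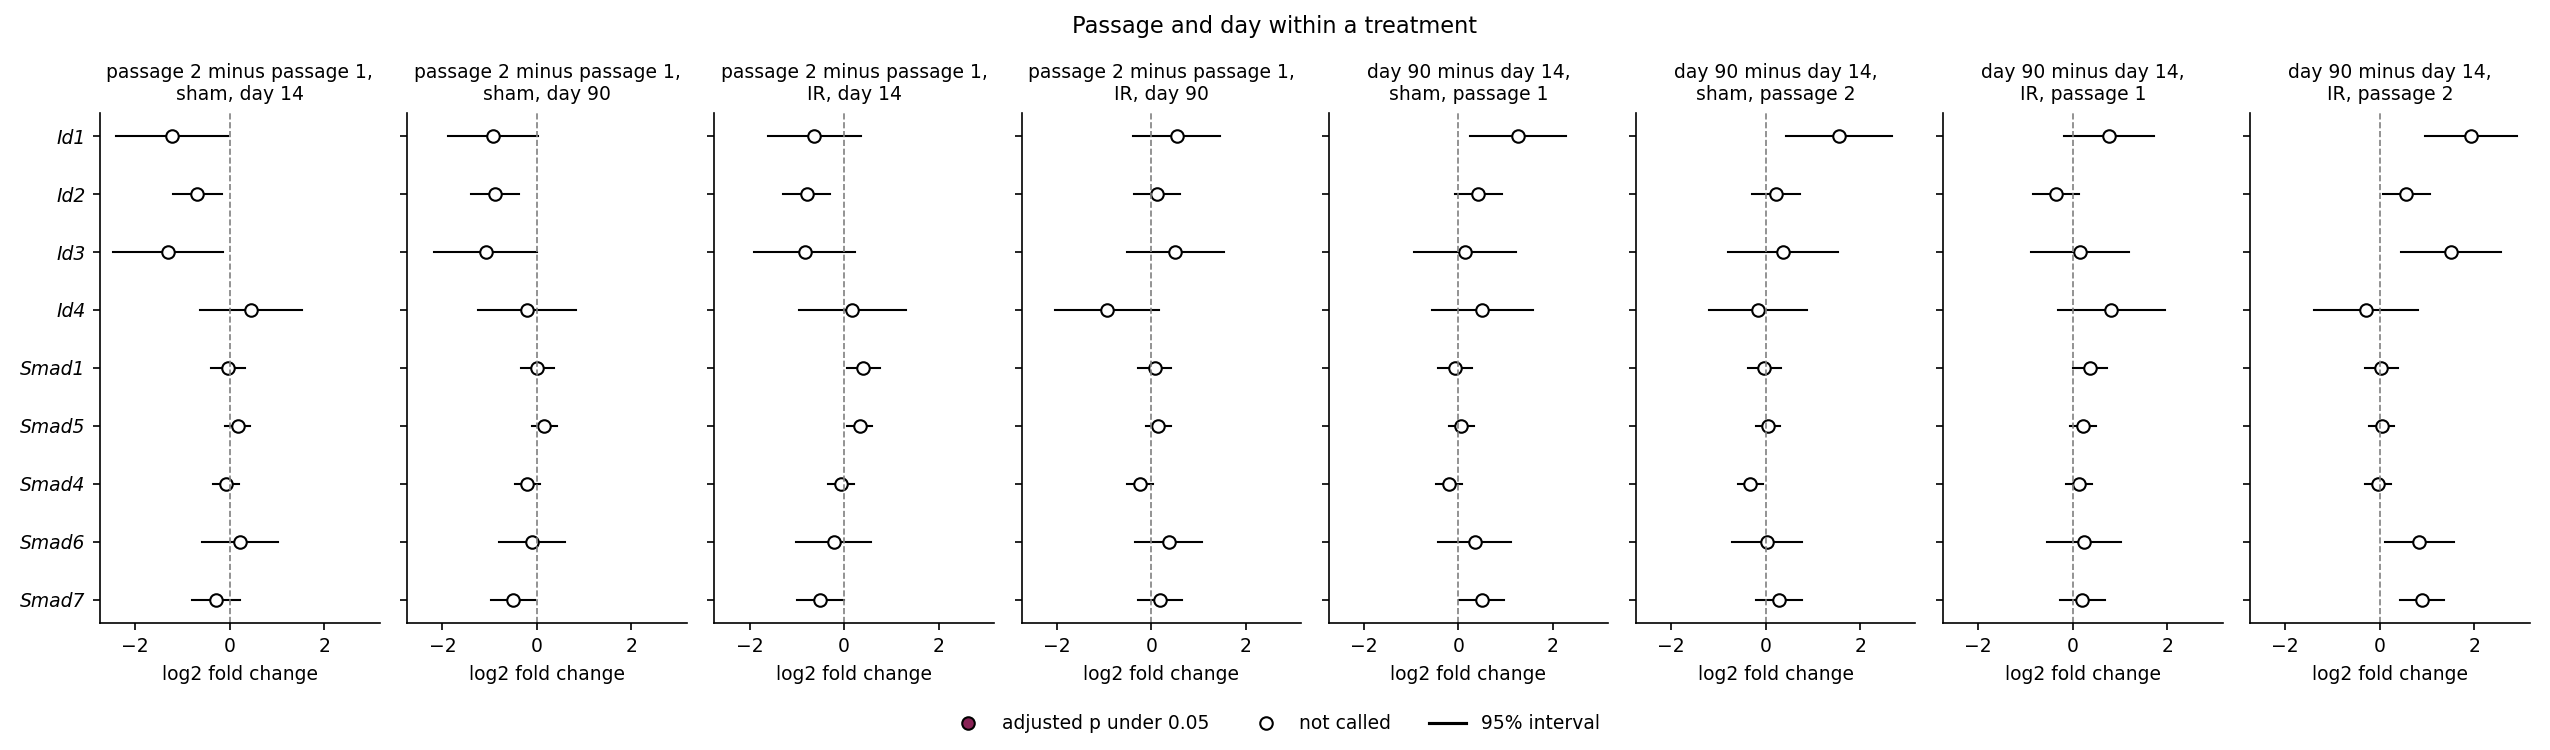
Log2 fold changes of the 9 tested members between passages and between days within sham and within IR organoids, with 95% intervals; open points were not called by edgeR, which called none; DESeq2 called Id2 between passages in sham of day 90, and Id1 and Smad7 between days in IR of passage 2. Id1 lay to the right of 0 in the day comparison of IR organoids of passage 2 (1.93), and Id2 to the left of 0 in the passage comparison of sham organoids of day 90 (-0.88).

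Whether the irradiation effect differed between days or passages was tested as an interaction, and no member was called. At day 90 the effect was larger in passage 2 than in passage 1 by 1.47 for Id1 (SE 0.64), 1.01 for Id2 (SE 0.34), 1.59 for Id3 (SE 0.72) and 0.69 for Smad7 (SE 0.31). These 4 had an unadjusted p under 0.05, and their adjusted p-values were 0.989 or above. Here edgeR and DESeq2 called 0 of 9 members, and edgeR called 0.00% of all tested genes, with 408 at an unadjusted p under 0.05 and 3 called by DESeq2. At day 14 edgeR and DESeq2 called 0 of 9 members between the passages, 0 had an unadjusted p under 0.05, and edgeR again called 0.00% of all tested genes, with 729 at an unadjusted p under 0.05 and 20 called by DESeq2.

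Between the days, the irradiation effect on Id2 in passage 1 was smaller at day 90 than at day 14 by a log2 difference of -0.78 (SE 0.34, adjusted p = 0.561). Id2 was the 1 member with an unadjusted p under 0.05, and edgeR and DESeq2 called 0 of 9. Of all 10563 tested genes edgeR called 0.0189% and DESeq2 24 genes, and 861 had an unadjusted p under 0.05. In passage 2 edgeR and DESeq2 called 0 of 9 members between the days, and 0 had an unadjusted p under 0.05. Of all tested genes edgeR called 0.00947% and DESeq2 2 genes, and 542 had an unadjusted p under 0.05.

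The genes whose log2 CPM over the 24 libraries ran most like an Id gene were sought among 7741 tested genes with a mean of at least 10 CPM. For Id1 they were Tc2n (Pearson r = 0.91), Id3 (0.89) and Dyrk3, a protein kinase (0.88). For Id2 they were Mal, a membrane protein of the apical sorting pathway in epithelia (0.90), Atp1b1, a subunit of the sodium pump (0.90), and Id3 (0.89). For Id3 they were Igfbp7, an insulin-like growth factor binding protein (0.92), Tc2n (0.91) and Id2 (0.89). The points share libraries, and these values hold the differences between the groups as well as those within them.

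Within groups, Id1 and Id3 moved together from library to library. Each library's deviation from its group mean in log2 CPM was correlated for 8 pairs of genes over the 24 libraries, with permutation within groups. For Id1 and Id3, Pearson's r was 0.834 (permutation p = 0.00094, adjusted p = 0.00752) and Spearman's rho 0.857 (p = 0.00057, adjusted p = 0.00456). With the 2 farthest libraries left out, r was 0.775 with an adjusted p of 0.0627 and rho 0.815 with an adjusted p of 0.0404. Over the 12 libraries of day 14 r was 0.863 (adjusted permutation p = 0.032; by rho 0.0706), and over the 12 of day 90 it was 0.830 and did not pass (adjusted permutation p = 0.196). For Id1 and Id2, r was 0.780 (p = 0.0134, adjusted p = 0.0537) and rho 0.674 (p = 0.0097, adjusted p = 0.0388), and r was 0.624 without the 2 farthest libraries, where rho no longer passed (adjusted permutation p = 0.255), 0.888 at day 14 and 0.593 at day 90.

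The ligand Bmp4 and the Id genes were compared in the same way, and the difference between these correlations and those among the Id genes was not tested. Between Bmp4 and Id1, r was 0.527 (p = 0.0467, adjusted p = 0.0934) and rho 0.50 (adjusted p = 0.111), and r was 0.495 without the 2 farthest libraries. Between Bmp4 and Id3, r was 0.581 (p = 0.0393, adjusted p = 0.0934) and rho 0.498 (adjusted p = 0.111), and r was 0.503 without the 2 farthest libraries. For Bmp4 with Id2, Smad6 and Smad7 and for Id1 with Smad6, r was 0.286, 0.177, 0.172 and 0.207 (rho 0.202, 0.143, 0.0870 and 0.319), with adjusted p-values from 0.522 to 0.566 for r. None of these 6 relations passed over the 24 libraries without the replicate block. With the block Bmp4 passed with Id1 and Id3, under the limit given in the last paragraph. Bmp4 had only 0 to 51 counts a library. With a prior count of 2 in place of 0.5, its r was 0.629 with Id1 and 0.611 with Id3 (adjusted permutation p = 0.0874 for both). Over the 12 libraries of day 14 alone, Id1 with Smad6 passed by r (0.657, adjusted permutation p = 0.032) and not by rho (0.706, adjusted permutation p = 0.181), and at day 90 alone its r was -0.28.

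**Figure D5:**
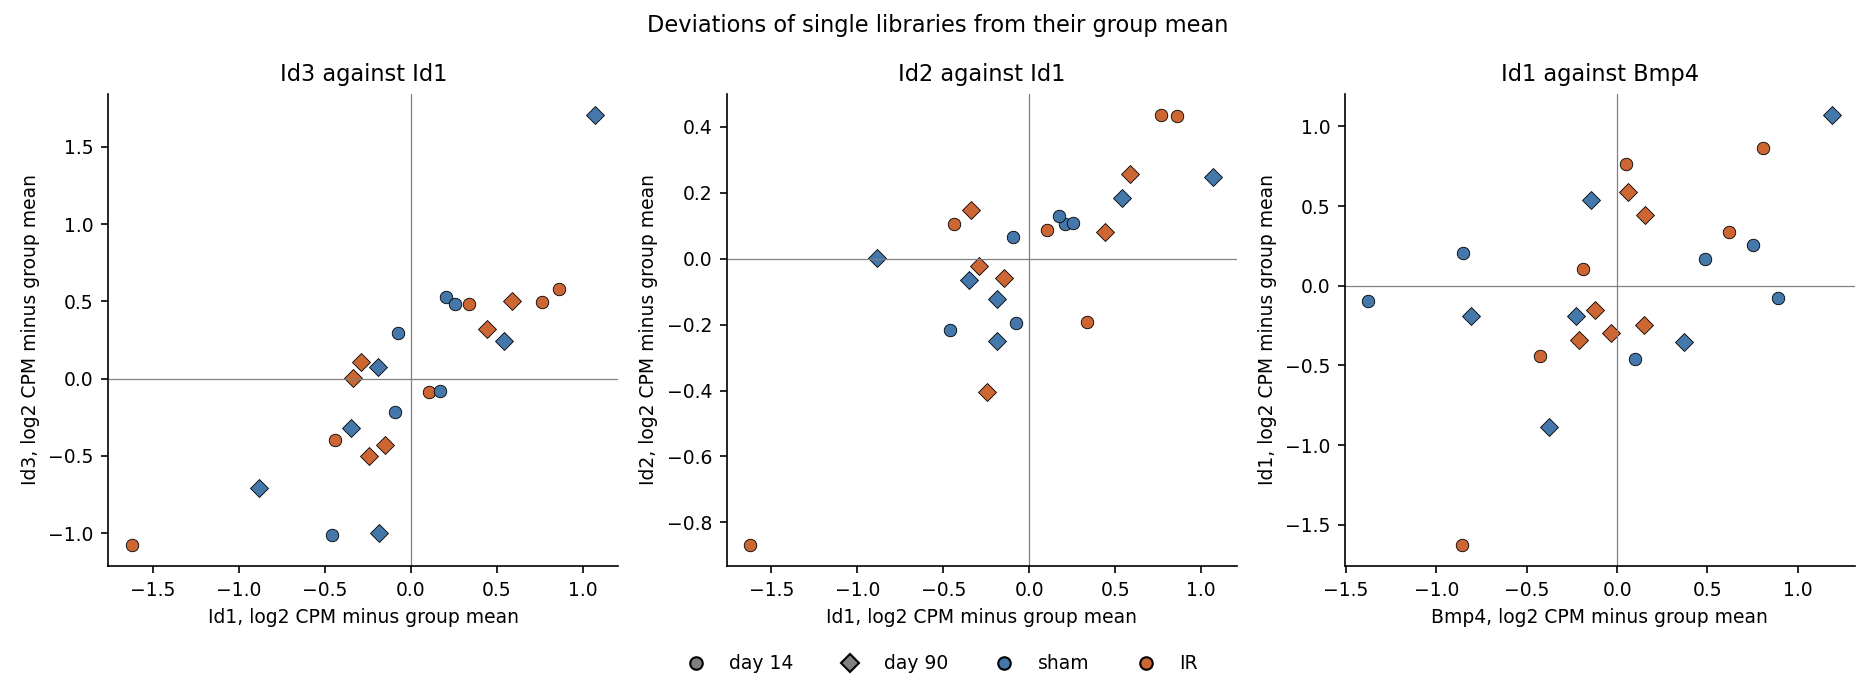
Deviation of each library from its group mean in log2 CPM, for Id3 against Id1, Id2 against Id1 and Id1 against Bmp4; circles are day 14, diamonds day 90, and colour gives the treatment. Id3 and Id1 lie along a rising line (r = 0.834 over 24 libraries), and r was 0.527 for Id1 against Bmp4.

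Bmp4 itself was at 2.09, 0.605 and 0.374 CPM in sham and at 15.1, 14.1 and 11.7 CPM in IR libraries of day 90 and passage 2 (log2 fold change 3.62, SE 0.51, adjusted p = 0.000354), with no overlap. These values rest on 7, 2 and 1 counts in sham and 51, 34 and 29 counts in IR libraries, so the sham level was close to the floor. In the mean of the 4 effects it was higher by 2.04 (SE 0.27, adjusted p = 0.000128), and Bmp7, the other tested of 8 BMP ligands, stood at -0.61 (SE 0.17, adjusted p = 0.0237). Bmp4 was thus called in the same direction as Id1, Id2 and Id3 in both comparisons, which share their libraries, and Bmp7 in the opposite direction in the mean. In the other day and passage combinations, which also enter the mean, edgeR did not call Bmp4. Its log2 fold change was 0.74 (adjusted p = 0.635) and 2.24 (adjusted p = 0.562) at day 14 in passages 1 and 2. At day 90 and passage 1 it was 1.57 (adjusted p = 0.126).

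The other genes of the pathway were counted by list, 80 genes in 8 lists of which 49 were tested. In the 3 comparisons other than day 90 and passage 2, edgeR called 0 of the 49 in each. At an unadjusted p under 0.05 there were 8, 4 and 8 (day 14 passage 1, day 14 passage 2, day 90 passage 1), and DESeq2 called 1, 0 and 1. Of all 10563 tested genes, 1160, 710 and 1342 had an unadjusted p under 0.05 in edgeR, in the same order. Of all tested genes DESeq2 called 17 at day 14 and passage 2 and 86 at day 90 and passage 1. At day 14 and passage 1 it called more than in either of these. At day 90 and passage 2 edgeR called 6 of the 49 and DESeq2 5, where edgeR called 4.91% of all tested genes and DESeq2 628 genes. In the mean of the 4 effects edgeR called 15 and DESeq2 13, where edgeR called 11.0% of all tested genes and DESeq2 1320 genes. The edgeR counts by list below are read against these edgeR shares. The list of 6 tested receptors and co-receptors had 1 lower at day 90 and passage 2: Rgma, a BMP co-receptor (-1.34, SE 0.31, adjusted p = 0.0140). In the mean 2 were lower, Rgma (-0.78) and Acvr2a, a type II receptor (-0.40, SE 0.10, adjusted p = 0.0109), and the median of the list was -0.02. Of 6 tested antagonists 1 was called in both, Fstl1, a secreted follistatin-like glycoprotein, which was higher by 2.43 at day 90 and passage 2 (SE 0.39) and by 1.03 in the mean (SE 0.19). The 2 Smads of TGF-beta and activin signalling, Smad2 and Smad3, were not called, with medians of -0.07 and 0.05.

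Of 20 tested regulators of Smads, 1 was higher at day 90 and passage 2, Skil, a co-repressor of Smad complexes (0.70, SE 0.19, adjusted p = 0.0342). In the mean 2 were higher and 1 lower. These were Smurf1, a ubiquitin ligase for BMP Smads (0.46, SE 0.13), Tob1, which binds BMP Smads (0.50, SE 0.14), and Ctdspl, a small phosphatase (-0.27, SE 0.09). Of 3 other tested BMP-Smad targets, Runx2, a transcription factor of bone, was higher at day 90 and passage 2 (0.66, SE 0.19, adjusted p = 0.0458) and in the mean (0.31), and Hey1, also a Notch target, was lower in the mean (-1.33, SE 0.28, adjusted p = 0.00390). The median of the 3 was -0.67 at day 90 and passage 2 and -0.08 in the mean.

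The bHLH factors, the partners that Id proteins bind or resemble, moved in both directions. Of 7 tested, 1 was higher at day 90 and passage 2, Scx, a factor known from tendon (3.85, SE 0.59, adjusted p = 0.000760). In the mean 2 were higher and 2 lower, among them Scx (1.66, SE 0.29), Hes1, a Notch target (0.53, SE 0.16), and the E protein gene Tcf4 (-0.29, SE 0.09, adjusted p = 0.0324). Of 3 inhibitors of cyclin-dependent kinases, 1 was called in the mean, Cdkn2b, which encodes p15 (0.44, SE 0.11, adjusted p = 0.0141).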

How the data were processed

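The values the authors deposited are raw counts of reads on Ensembl mouse genes, in 1 file for each of 24 libraries, without normalization. RNA was purified on columns with DNase treatment and sequenced from the 3' end (QuantSeq), per the labels' protocols. Bcl2fastq and the build GRCm39 are named in the submitters' processing notes. Aligner, counter, annotation and strand setting are not stated in any source used here, so antisense and overlapping genes could share reads. Lines that name no gene (no feature 11.5% to 26.5%, ambiguous 0.259% to 0.451% of a library) stayed out of library sizes and tests. Symbols were matched by identifier for 47224 of 47643 genes. Promoter windows come from RefSeq on GRCm38.p6, and no coordinates were converted.

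The main test was edgeR's quasi-likelihood test (version 4.0.16, R 4.3.3): TMM factors, filterByExpr on the 8 groups (10563 genes kept), 1 mean per group, all 24 libraries sharing the estimate of spread. P-values are two-sided and Benjamini-Hochberg adjusted over all tested genes for each of 17 comparisons, with calls at 0.05. The SE is the log2 fold change over the square root of F, and 95% intervals use the total degrees of freedom. Deviations used log2 CPM with a prior count of 0.5 and 100000 permutations within groups. Alternatives were DESeq2 1.42.0, other scalings and filters, only the compared groups, a replicate block, ribosomal genes left out, the Gm42418 share as a covariate and each library left out. One, added after the data were seen, left out 2 libraries that stood apart. Scripts were tested on simulated counts.

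In all 24 within-group pairs of replicates the difference exceeded sampling noise (2.07 to 26.7, chi-square over degrees of freedom), so no pair was treated as duplicates. This does not show that they came from separate animals or cultures. Replicate numbers are those of the sample titles, and some files of day 90 IR carry other numbers. The 10 members were named in the comparisons of IR with sham, and elsewhere those with an unadjusted p under 0.05. For each pathway list up to 3 called genes with the smallest p were named, and for each of Id1, Id2 and Id3 the 3 genes most like it, predicted genes left out. The members, lists and tests were chosen with earlier results of these data known.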

Additional observations from a re-analysis of the deposited data

How the results depend on the processing

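Of 1421 recomputed values of 82 named results, 1312 kept their direction and side of the threshold, 37 lost a call, 50 gained one and 22 changed sign; of the counts of called members, 274 stayed within 1.5 times and 32 did not. With no filter on low counts, 22785 genes were tested with a single estimate of variance for all. Brackets after the members called give all genes called. For IR against sham at day 14 the members called were 3 (460) in passage 1 and 3 (200) in passage 2. At day 90 they were 2 (465) in passage 1. The main fit called 36, 2 and 5 of all genes there. Between passages in sham they were 3 (539) at day 14 and 3 (704) at day 90. In IR they were 2 (697) at day 14 and 1 (369) at day 90. Between days they were 1 (223) and 1 (427) in sham of passages 1 and 2, and 3 (560) in IR of passage 2. They were 1 (129) for the change of the IR effect between days in passage 2. For that between passages at day 90 they were 3 (95). With only the compared groups the members called for IR against sham were 2 (78) at day 14 in passage 1. At day 90 in passage 2 they were 1 (79), where the main fit called 519 of all genes. Between passages in sham of day 90 they were 1 (150). This fit was not possible for the mean of the 4 effects, which uses all groups. DESeq2 called 2 (17) at day 14 in passage 2, 1 (212) between passages in sham of day 90 and 2 (168) between days in IR of passage 2. The Gm42418 covariate gave 1 (6) at day 14 in passage 2 and 1 (220) between passages in IR of day 14. Between days in IR of passage 2 it gave 2 (105), and total counts gave 2 (94) in that last comparison. Without the 2 libraries that stood apart, a setting chosen after seeing the data, 3 (45) were called at day 14 in passage 2. Between passages in sham of day 90 they were 3 (156). Where these changes are not explained by fewer or more genes or samples, the cause was not tested.

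Leaving out 1 library at a time, the members called ranged from 0 to 1 at day 14 in passage 1, 0 to 2 in passage 2, 3 to 4 at day 90 in passage 2, 3 to 5 in the mean, 0 to 1 between passages in sham of day 90 and 0 to 2 between days in IR of passage 2. All genes called ranged from 0 to 147 at day 14 in passage 1 and 0 to 38 in passage 2. They ranged from 136 to 1183 at day 90 in passage 2 and 844 to 1777 in the mean. The fit with 1 member called between passages in sham of day 90 called 65 genes. That with 2 called between days in IR of passage 2 called 375 genes. Differences of IR and sham whose sign changed with 1 library left out ranged from -0.22 to 0.10 for Smad6 at day 14 in passage 2, -0.44 to 0.17 for Id4, -0.0383 to 0.196 for Smad1 and -0.0150 to 0.204 for Smad7 at day 90 in passage 1, -1.63 to 0.0939 for Id4 and -0.0274 to 0.227 for Smad1 at day 90 in passage 2, and -0.0599 to 0.0106 for Smad1 in the mean. None of these was called in any fit but that of Id4 at day 90 in passage 2 with no filter. Without the 2 libraries that stood apart, Smad6 at day 14 in passage 2 was at 0.0943, and Id4 and Smad1 at day 90 in passage 2 at 0.0956 and -0.0293. With total counts, Smad1 and Smad7 at day 90 in passage 1 were at -0.12 and -0.0870, and with the Gm42418 covariate Smad7 was at -0.16, Id4 at 0.27 and Smad1 in the mean at 0.0298. The cause was not tested. At day 90 alone r was -0.17 for Bmp4 with Smad6 and -0.28 for Id1 with Smad6, and at day 14 alone -0.15 for Bmp4 with Smad7.

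With the replicate block, 1, 0, 0 and 4 members were called in the 4 comparisons of IR with sham, among 49, 2, 8 and 614 genes. In the mean 3 were called among 1286 genes, and Smad7 lost its call. The correlations of Bmp4 with Id1 and Id3 and of Id1 with Id2 passed with the block (r = 0.669, 0.671 and 0.824). Those permutations ran within groups and did not keep the block, so their p-values can be too small. Passing there therefore decides nothing about these relations. Same-numbered libraries did not deviate together (correlations from -0.239 to 0.382, in no pair of groups all over 0.1), so the numbers were not taken as pairs; they come from the sample titles, and some files of day 90 IR carry other numbers, which limits this check and the block. Smad6 with 5 to 32 counts a library, Bmp4 with 0 to 51 counts a library and Smad9 with 4 counts in all are limited by depth.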
